A study of Mus musculus with 8 samples.

Results

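Neuropeptides are short signalling peptides that nerve fibres and some gut endocrine cells release, and several of them act on immune cells of the intestinal wall. Calcitonin gene-related peptide (CGRP) is made in an alpha form from Calca, which also encodes calcitonin, and in a beta form from Calcb, which is the main CGRP gene of enteric neurons. CGRP signals through the receptor protein Calcrl, which binds CGRP when paired with the accessory protein Ramp1. Vasoactive intestinal peptide (Vip), the tachykinin precursor Tac1 (substance P and neurokinin A) and neuromedin U (Nmu) are other peptides of the enteric nervous system, and Vipr1 is a receptor for VIP found on T cells and gut epithelium.

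These genes were followed in Peyer's patches, the lymphoid organs of the small intestine, of C3H/Hej mice, an inbred strain known for a defective endotoxin receptor. Ovalbumin (OVA), an allergenic protein of egg white, went by gavage at 40 mg/kg per day for 28 days, from 6 weeks of age, to 2 females (mice 2 and 12) and 4 males (mice 1, 5, 8 and 13), and 1 female (mouse 7) and 1 male (mouse 8) given saline served as controls. Male control 8 and male OVA 8 are different samples. Each sample was read on 1 Affymetrix array and the labels number the samples within their groups without saying whether tissue was pooled. Precision is limited by having 8 arrays, of which 2 are controls.

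Of the 8 genes listed for this set, 7 had at least 1 probe set that names them alone, 13 probe sets in all among 45101 on the array and 7 genes among 18193. Calca had none under the annotation used and was not analysed here. The genes were put on the list with results of these arrays known, so the OVA against control values below are a description and carry no test. A probe set was kept for tests if its mean log2 intensity over the 8 arrays was above the median of all, an intensity of 11.9. The brightest probe set of each of the 7 genes passed, as did the second Ramp1 probe set, 8 in all. The other 5, which lay between 2.50 and 7.11, were the 2 dimmer probe sets of Calcrl, 1 of Ramp1, 1 of Vipr1 and 1 of Tac1. Intensities of different probe sets are not comparable with each other, so levels are compared only between arrays.

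The labels give Peyer's patch as the tissue, while their extraction text names brain cortex. B cell follicle markers passed the intensity filter in 11 of 12 genes, whereas 3 of 12 brain cortex markers did so. Those 3 were the kinase gene Camk2a (23.0 to 34.1), the myelin gene Mbp (157.8 to 204.3) and the water channel gene Aqp4 (45.4 to 69.5). The neuronal Slc17a7, Gad1, Gad2 and Neurod6 stayed at or below 6.24 on every array. Of 19 markers of enteric neurons and glia, 17 had a probe set and 8 passed, among them the neuronal Stmn2 and Syt1, the receptor Ret and the glial transcription factor Sox10. Uchl1, Elavl4, Snap25, Tubb3, S100b and Gfap lay below the filter. None of the 7 sensory nociceptor markers passed (5 had a probe set), Trpv1 reaching no more than 3.81. In bulk tissue, fewer cells of a type and less RNA per cell cannot be told apart.

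Among the 8 member probe sets past the filter, that of Calcb was the one whose OVA arrays all lay on the same side of both controls. Its intensity was 38.8 in female control 7 and 28.7 in male control 8. It was 80.8 in female OVA 2, 88.0 in female OVA 12, 61.0 in male OVA 1, 58.9 in male OVA 5, 103.5 in male OVA 8 and 45.2 in male OVA 13. All 6 OVA mice lay above both controls, the nearest being male OVA 13, and the highest was male OVA 8.

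Mean Calcb intensity was 33.7 ± 7.14 (SD, n = 2) without OVA. With OVA it was 72.9 ± 21.6 (SD, n = 6), 2.16-fold higher as a ratio of means. The ratio of the means was 2.18 in females and 2.34 in males. On the scale log2(intensity + 4.88), with sex as a covariate, the difference was 1.04 ± 0.24 (SE). Among all 22518 probe sets tested, 0.0711% were higher by 1 log2 or more and 8.36% had all OVA arrays above both controls. In limma, 0% of probe sets passed at an adjusted p of 0.05 for OVA against control, although 2524 (11.2%) had an unadjusted p under 0.05. Calca and Calcb are closely similar genes, and whether the Calcb probe set also reads Calca was not checked. Leaving out any 1 array kept the Calcb difference between 0.92 and 1.12.

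**Figure D1:**
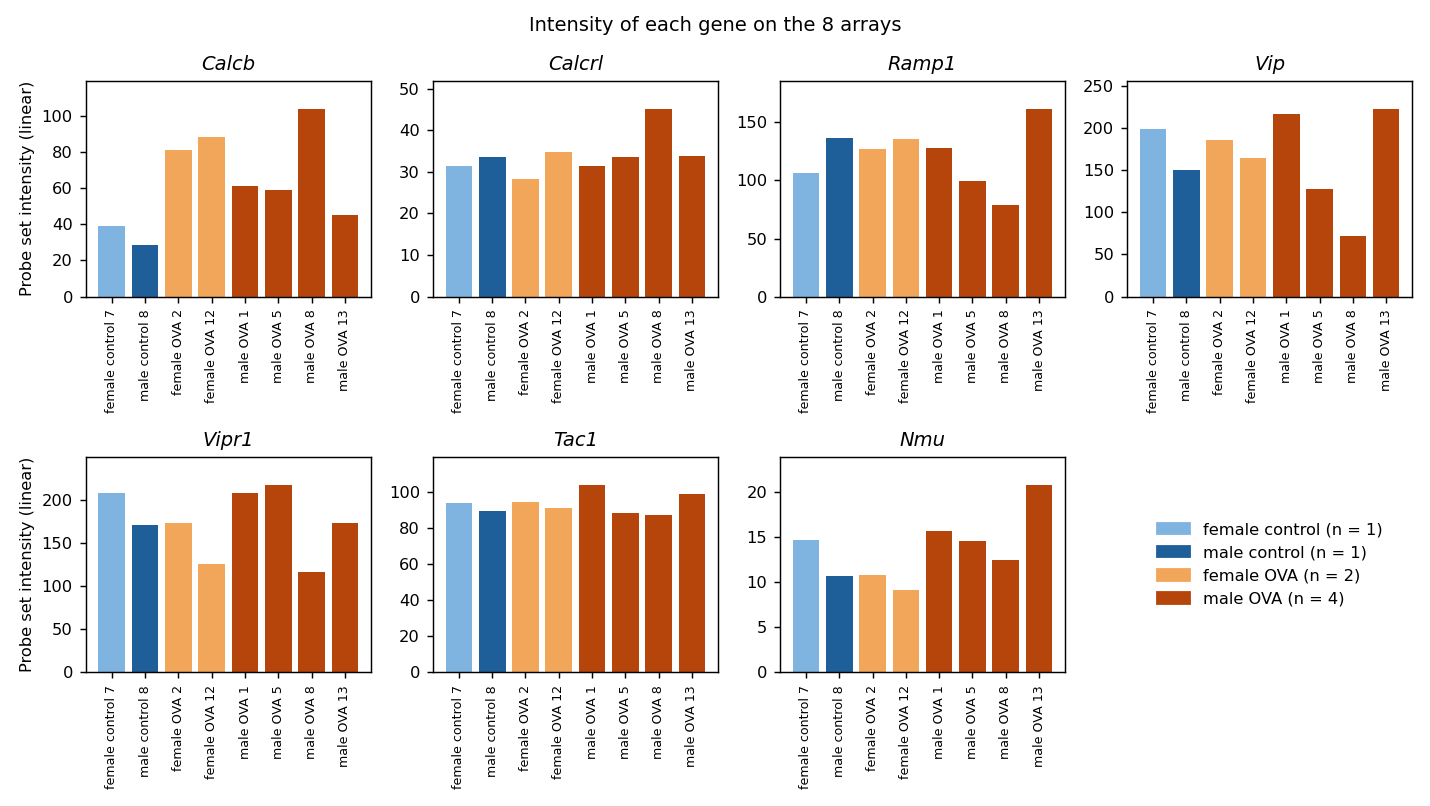
Probe set intensity (linear axis from 0) of the 7 measured genes, 1 bar per array, coloured by sex and treatment. Calcb is higher on all 6 OVA arrays (45.2 to 103.5) than on both control arrays (28.7 and 38.8), while for the other 6 genes the OVA arrays overlap the controls.

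The receptor side of CGRP overlapped between the treatments. Calcrl, the seven-pass receptor subunit shared by CGRP and adrenomedullin, was at 31.3 in female control 7 and 33.6 in male control 8. The OVA values were 28.3 and 34.8 in females 2 and 12, and 31.3, 33.5, 45.1 and 33.8 in males 1, 5, 8 and 13. Male OVA 8 was the highest array, female OVA 2 the lowest, and the others lay at or near the controls. The log2 difference was 0.04 ± 0.14 (SE), and without male OVA 8 it was -0.01. Another Calcrl probe set, dim, below the filter and not tested, read 5.61 and 3.36 in the female and male control. It read 2.50 to 2.82 in the 6 OVA mice, all below both controls. That pattern held for 5.01% of the probe sets tested, and its share among dim probe sets below the filter was not counted. The third Calcrl probe set, also dim and below the filter, lay at 2.97 to 3.25 on all arrays, with no OVA mouse below both controls.

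Ramp1, which turns Calcrl into a CGRP receptor, was at 106.8 in female control 7 and 136.5 in male control 8. In OVA mice it was 127.1 and 136.0 in females 2 and 12, and 127.9, 99.3, 78.7 and 161.4 in males 1, 5, 8 and 13. The OVA arrays lay on both sides of the controls, with males 8 and 13 at the ends. The log2 difference was -0.01 ± 0.25 (SE) for this probe set and 0.08 ± 0.15 (SE) for the dimmer second one. Without female control 7 it was -0.26, and without male control 8 it was 0.29.

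Of the partners and relatives of this receptor none passed in limma. Ramp2, which makes Calcrl an adrenomedullin receptor, had means of 93.9 ± 14.5 (SD, n = 2) without OVA and of 84.1 ± 7.06 (SD, n = 6) with it. Ramp3, its other adrenomedullin partner, had a control mean of 18.6 ± 2.09 (SD, n = 2) and an OVA mean of 19.5 ± 1.56 (SD, n = 6), and adrenomedullin itself, Adm, had a log2 difference of -0.07 ± 0.11 (SE). Crcp, an intracellular protein that couples the CGRP receptor to its signal, was above both controls in 6 of 6 OVA mice, as were 8.36% of all probe sets tested. Its control mean was 113.0 ± 0.651 (SD, n = 2) and its OVA mean 130.2 ± 13.1 (SD, n = 6). Its log2 difference was 0.21 ± 0.11 (SE; limma adjusted p = 0.491). Amylin, Iapp, was at -0.08 ± 0.19 (SE), and the calcitonin receptor Calcr lay below the filter. Of the 6 genes of this family past the filter, 2 were higher and 4 lower, with 0 at an unadjusted p under 0.05. Their median was -0.05 against 0.02 for all 11988 genes tested.

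Vip, which relaxes gut muscle and drives secretion, varied more between mice than between treatments. It was at 198.3 in female control 7 and 150.0 in male control 8. In OVA mice it was 185.8 and 164.3 in females 2 and 12, and 216.8, 127.2, 72.2 and 222.3 in males 1, 5, 8 and 13. The 4 male OVA mice thus held both the lowest and the highest values, 3.08-fold apart. The log2 difference was -0.10 ± 0.37 (SE), and without male OVA 8 it was 0.06. The SD of Vip over the 6 OVA arrays, 0.59 log2, was above that of 98.4% of tested probe sets, whose median SD was 0.17.

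Vipr1 was at 208.1 in female control 7 and 170.4 in male control 8. In OVA mice it was 172.7 and 125.3 in females 2 and 12, and 207.4, 217.2, 116.4 and 172.7 in males 1, 5, 8 and 13. Female OVA 12 and male OVA 8 were below both controls and the other 4 were not. The log2 difference was -0.21 ± 0.25 (SE), but it was 0.03 without female control 7 and -0.49 without male control 8. Of the relatives, the second VIP receptor Vipr2 and the related peptide PACAP (Adcyap1) lay below the filter, with highest values of 9.04 and 7.18. The PACAP receptor Adcyap1r1 was at 0.08 ± 0.12 (SE) and secretin, Sct, a hormone of endocrine cells, at -0.29 ± 0.24 (SE). These were the 2 of 6 genes of this family that could be tested, and neither passed (0 at an unadjusted p under 0.05).

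Tac1 was the steadiest of the set. It was at 93.8 in female control 7 and 89.7 in male control 8. In OVA mice it was 94.5 and 91.4 in females 2 and 12, and 104.0, 88.3, 87.5 and 98.9 in males 1, 5, 8 and 13. The groups overlapped and the whole range was 1.19-fold. The log2 difference was 0.03 ± 0.10 (SE). The receptors of its peptides, Tacr1 and Tacr2, stayed below the filter, with highest values of 11.1 and 9.60.

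Nmu lay on opposite sides of the same-sex control in females and males. It was at 14.7 in female control 7 and at 10.8 and 9.19 in female OVA 2 and 12. In males it was at 10.7 in control 8 and at 15.7, 14.6, 12.5 and 20.8 in OVA 1, 5, 8 and 13. Both OVA females were below the female control and all 4 OVA males above the male control. The share of all probe sets with this pattern was not counted. Nmu is dim, and female OVA 2, female OVA 12 and male control 8 lay below the filter intensity of 11.9. Over both sexes the log2 difference was 0.03 ± 0.20 (SE). It was -0.40 without male control 8, which leaves the contrast within females, and 0.40 without female control 7, which leaves that within males. The male minus female OVA effect was 0.80 ± 0.31 (SE). Each sex has 1 control array, so that error rests on the spread of the OVA arrays, moderated in limma by that of all probe sets tested. The neuromedin U receptor Nmur1, known on group 2 innate lymphoid cells, lay below the filter (highest value 7.99). Neuromedin B, Nmb, was the 1 of 12 tachykinin, neuromedin and bombesin genes past it, at 0.28 ± 0.14 (SE), and did not pass (adjusted p = 0.473; 0 of the list had an unadjusted p under 0.05).

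Female against male was not used in choosing the genes and was tested. For the sexes, 12 of 22518 probe sets passed in limma (0.0533%), and none of the 8 member probe sets was among them (smallest unadjusted p = 0.125, smallest adjusted p = 0.906). The female minus male difference of Calcb was 0.37 ± 0.22 (SE). OVA females held 84.4 ± 5.14 (SD, n = 2) and OVA males 67.2 ± 25.2 (SD, n = 4), so the sexes overlapped. Nmu was at -0.25 ± 0.18 (SE), but at -0.47 without either control and at -0.11 without female OVA 12. Vip was at 0.29 ± 0.33 (SE), but at 0.07 without male OVA 8. Tac1 was at 0.00 ± 0.09 (SE). The male minus female OVA effect is built from the same control and OVA arrays that chose the genes, so its member values are a description. Over all probe sets 0% passed in limma (1846 had an unadjusted p under 0.05). It was 0.01 ± 0.53 (SE) for Calcb, -0.55 ± 0.49 (SE) for Ramp1 and 0.51 ± 0.50 (SE) for Vipr1.

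**Figure D2:**
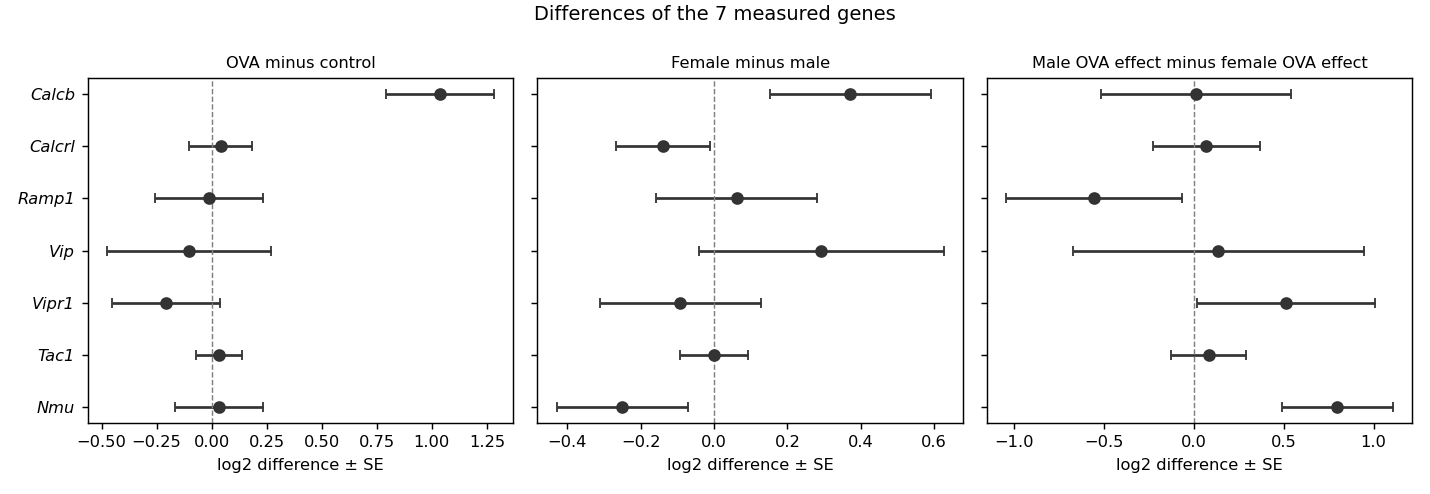
Log2 differences (points) with their standard errors (bars) for the 7 measured genes from the fits over 8 arrays, for OVA minus control, female minus male and the male minus female OVA effect. The OVA minus control difference of Calcb is 1.04, and the other 6 lie between -0.21 and 0.04. The genes were listed with results of these arrays known. The OVA minus control differences and the male minus female OVA effects therefore carry no test. Female minus male was tested, and no gene passed.

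The members did not vary together as 1 group. Across the 8 arrays the 2 peptide genes Vip and Tac1 followed each other (r = 0.79 and rho = 0.95), and r was 0.89 over 7 arrays without male OVA 8. Vip and Ramp1 had r = 0.81, which was 0.51 without male OVA 8. Vip and Calcrl had r = -0.84, which was -0.34 without it. Calcb and Vip had r = -0.46, which was 0.01 without it. These values are descriptions of 8 arrays that share 1 normalization, and the pairs were read after the values were seen. Male OVA 8 was the highest array for Calcb and Calcrl and the lowest for Vip, Ramp1, Vipr1 and Tac1.

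The upstream sequence of Vip and Tac1, the pair with the highest rho over the 8 arrays (0.95), is given here as reference. By r, Vip and Ramp1 were closer (0.81 against 0.79), and Tac1 itself ranged 1.19-fold. Both are the 250 bases before the start site in RefSeq (GRCm38.p6), 5′ to 3′ on the strand of the gene. Capitals mark TGACG, the half-site of the cyclic AMP response element, on either strand, where the reverse strand reads CGTCA. Vip lies at chr10:5638968-5639217 on the plus strand and Tac1 at chr6:7554811-7555060 on the plus strand.
Vip: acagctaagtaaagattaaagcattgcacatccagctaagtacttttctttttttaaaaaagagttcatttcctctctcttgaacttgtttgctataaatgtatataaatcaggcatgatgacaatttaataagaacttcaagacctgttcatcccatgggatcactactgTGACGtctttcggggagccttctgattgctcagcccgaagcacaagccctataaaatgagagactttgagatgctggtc
Tac1: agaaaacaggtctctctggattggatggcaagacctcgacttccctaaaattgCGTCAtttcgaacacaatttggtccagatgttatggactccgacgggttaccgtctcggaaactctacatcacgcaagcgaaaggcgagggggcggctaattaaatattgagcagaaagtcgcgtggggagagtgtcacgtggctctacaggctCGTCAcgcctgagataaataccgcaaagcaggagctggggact
The Vip window held 1 half-site and the Tac1 window 2. Of the 7 listed genes with an entry, Calca, Nmu and Vipr1 held 1 each, and Calcrl and Ramp1 held none. Calcb had no entry. TGACG occurred in 17.8% of all 32851 windows of this length. The full element TGACGTCA, which contains the half-site, occurred in 1.55% of windows and in none of the 7. A match is a description of letters and was not tested as a binding site. In RefSeq gene order Calca and Calcb are neighbouring coding genes on chromosome 7.

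Marker levels of other cells differed between the arrays and are given beside the members. A score is the mean of log2(intensity + 4.88) over a list's genes past the filter, and no member is in these lists. The B cell follicle score (11 of 12 genes) was 7.50 in both controls and 7.55 to 8.51 in OVA mice. The arrays in rising order of this score were male control 8, female control 7, male OVA 13, male OVA 5, female OVA 2, male OVA 1, female OVA 12 and male OVA 8. Calcb rises along the same order with 1 exchange, between female OVA 2 and male OVA 1. Over the 8 arrays Calcb and this score had r = 0.86 and rho = 0.98, and Calcb and the gut epithelium score had r = -0.82 and rho = -0.90. Both hold the contrast the gene was chosen on.

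Relations within the 6 OVA arrays were tested, since the contrast of treatments does not enter them. The genes were still listed with these arrays known, and sex was not accounted for. How many of all genes have such an r with a score was not counted. For Calcb and the B cell score, Pearson's r was 0.87 with an exact permutation p of 0.0139 (0.117 adjusted), and rho was 0.94 with an exact permutation p of 0.0167 (0.467 adjusted). Dropping both arrays farthest from the median score left r at 0.69. For Ramp1 and the neuron and glia score (8 of 19 genes), r was 0.90 with an exact permutation p of 0.0153 (0.117 adjusted), and rho was 0.83 with an exact permutation p of 0.0583 (0.480 adjusted). Here r was 0.18 after that step. For Vip and the same score, r was 0.88 with an exact permutation p of 0.0167 (0.117 adjusted), rho was 0.60 with an exact permutation p of 0.242 (0.483 adjusted), and r was 0.01 after that step. Both neuron relations rest on those 2 arrays. For Vip and the gut epithelium score (12 of 12 genes), r was 0.90 with an exact permutation p of 0.0167 (0.117 adjusted), rho was 0.89 with an exact permutation p of 0.0333 (0.467 adjusted), and r was 0.49 after that step. Ramp1 against epithelium had r = 0.85 and rho = 0.60 (exact permutation p = 0.0444 for r and 0.242 for rho, 0.207 and 0.483 adjusted), with r = 0.16 after that step. Calcrl against epithelium had r = -0.84 and rho = -0.66 (exact permutation p = 0.0444 for r and 0.175 for rho, 0.207 and 0.483 adjusted), with r = -0.998 over the 4 arrays left after that step. Of the 28 relations, between 7 genes and 4 scores over 720 pairings, 6 had an unadjusted p under 0.05 for r and none passed after adjustment.

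**Figure D3:**
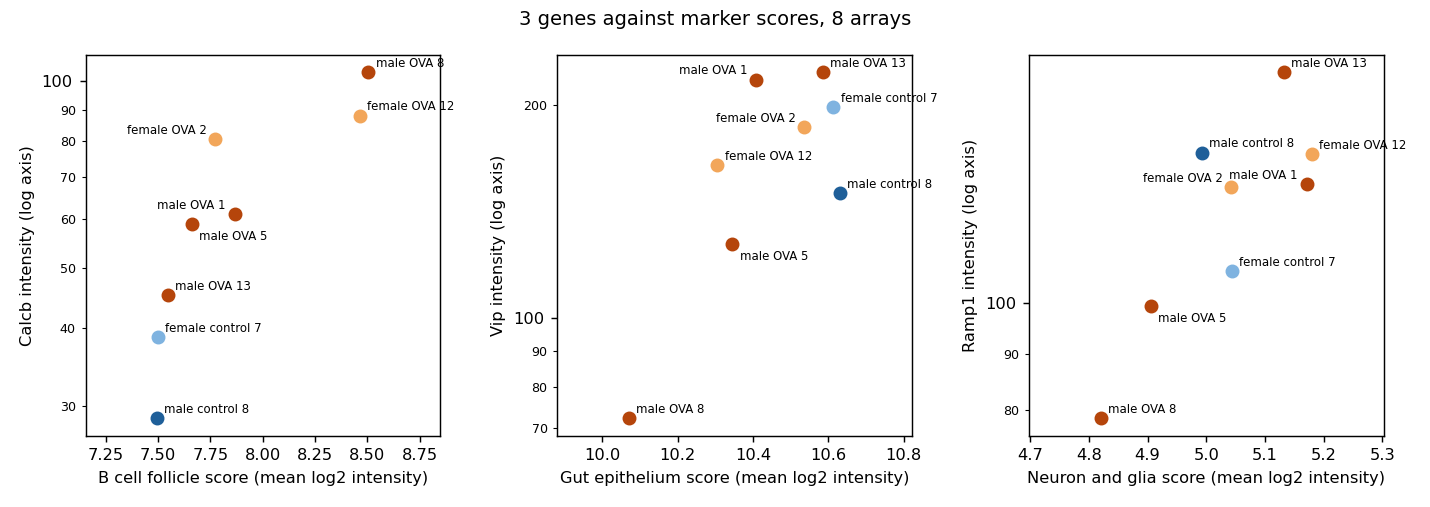
Intensity (log axis) of Calcb, Vip and Ramp1 against, in turn, the B cell follicle, the gut epithelium and the neuron and glia score (mean log2 intensity), 1 labelled point per array. Calcb runs from 28.7 in male control 8 to 103.5 in male OVA 8, the arrays with the lowest and the highest B cell score, and male OVA 8 holds the lowest Vip and Ramp1.

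With the B cell score added to the fit as a covariate, an alternative chosen after the data were seen, the OVA minus control difference of Calcb was 0.65 ± 0.18 (SE), 1.04 without it. Without female OVA 12 and male OVA 8, the mice with the highest scores, it was 0.89 ± 0.14 (SE). With the covariate Vipr1 was at 0.18 ± 0.18 (SE), Vip at 0.42 and Calcrl at -0.16. The gut epithelium score was 10.61 and 10.63 in the controls and 10.07 to 10.59 in OVA mice, all 6 below both controls. The T cell score (10 of 12 genes) was 6.098 and 6.010 against 6.102 to 6.556, all 6 above both controls, as for the B cell score. For the other lists, the smooth muscle score (10 of 10 genes) was 7.93 and 8.03 against 7.20 to 8.03, and the neuron and glia score 4.99 and 5.04 against 4.82 to 5.18. The enteroendocrine score (11 of 11 genes) was 7.34 and 7.42 against 6.56 to 7.61, lowest in male OVA 8. The endothelial score (9 of 10 genes) was 5.51 and 5.72 against 5.44 to 5.63, and that of group 2 innate lymphoid and mast cells (7 of 11) 4.93 and 5.04 against 4.89 to 5.51. The part of the other scores in these differences was not tested. The ratio of the 3′ to the 5′ beta-actin control probe sets, a sign of RNA integrity, was highest in male OVA 8 at 1.58. Both controls had 1.43 and 1.54, and the remaining 5 OVA arrays lay at 1.29 to 1.37. The same ratio for Gapdh was highest in male control 8 at 1.00. It was 0.96 in male OVA 8, 0.90 in female control 7 and 0.83 to 0.89 in the remaining 5 OVA arrays. The part of these ratios in the Calcb difference was not tested.

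Genes that make, store and cut neuropeptides showed no call in limma. Scg5, a chaperone of the prohormone convertase PC2, was above both controls in 6 of 6 OVA mice (8.36% of all probe sets tested). Its control mean was 37.9 ± 10.7 (SD, n = 2) and its OVA mean 57.9 ± 6.10 (SD, n = 6). The log2 difference was 0.59 ± 0.15 (SE; limma adjusted p = 0.367). Scg2, a granin of secretory granules, was below both controls in 6 of 6, as were 5.01% of all probe sets tested. Its control mean was 42.8 ± 0.685 (SD, n = 2) and its OVA mean 34.1 ± 6.15 (SD, n = 6), with a log2 difference of -0.31 ± 0.17 (SE). The convertase Pcsk1 was at -0.27 ± 0.16 (SE). Of the 8 genes of this list past the filter, 3 were higher and 5 lower (median -0.18). An unadjusted p under 0.05 was seen for 1 of them. Among all 11988 genes tested, 1224 had an unadjusted p under 0.05. All 7 peptidases that can cut neuropeptides had differences below 0 (median -0.22 against 0.02 for all genes), Dpp4, which trims VIP and related peptides, at -0.48 ± 0.23 (SE), Anpep at -0.45 ± 0.19 (SE) and Ace at -0.31 ± 0.28 (SE). None passed, and 1 had an unadjusted p under 0.05. Dpp4, Anpep and Ace are also enzymes of the gut brush border, and all 12 epithelium markers had differences below 0 (median -0.21, 2 at an unadjusted p under 0.05, none passing). The peptidases and epithelium markers kept these signs under both other pseudocounts, quantile normalization and median centring.

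Both CGRP and VIP receptors raise cyclic AMP. Of 19 genes of cyclic AMP signalling past the filter, 11 were higher and 8 lower (median 0.08). None passed in limma and 2 had an unadjusted p under 0.05. Among all 11988 genes tested, 6433 were higher, 5555 lower and 1224 had an unadjusted p under 0.05, so these counts are near the background. Crem, a cyclic AMP responsive transcription factor, was above both controls in 6 of 6 OVA mice (8.36% of all probe sets tested), its control mean being 12.6 ± 1.13 (SD, n = 2) and its OVA mean 17.2 ± 0.600 (SD, n = 6). Its log2 difference was 0.34 ± 0.09 (SE; limma adjusted p = 0.375). The other gene with an unadjusted p under 0.05 was Rapgef3, the cyclic AMP sensor Epac1, at 0.22 ± 0.09 (SE), named after its value was seen. The cyclase Adcy6 was at -0.31 ± 0.21 (SE) and the phosphodiesterase Pde4b at 0.29 ± 0.22 (SE).

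Among the other enteric transmitters, 7 of 22 could be tested, 3 higher and 4 lower (median -0.03), and none passed (0 at an unadjusted p under 0.05). Neurotensin, Nts, a hormone of distal gut endocrine cells and a neurotransmitter, had the widest spread. It was at 347.7 and 542.9 in the female and male control, at 555.8 and 313.4 in female OVA 2 and 12, and at 250.6, 40.2, 30.2 and 697.7 in male OVA 1, 5, 8 and 13. Males 5 and 8 were far below the rest and were also the OVA mice with the lowest Vip and Ramp1. The log2 difference of Nts was -1.01 ± 1.10 (SE). Galanin, Gal, was at -0.27 ± 0.23 (SE) and the noradrenaline enzyme Dbh at 0.12 ± 0.18 (SE).

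**Figure D4:**
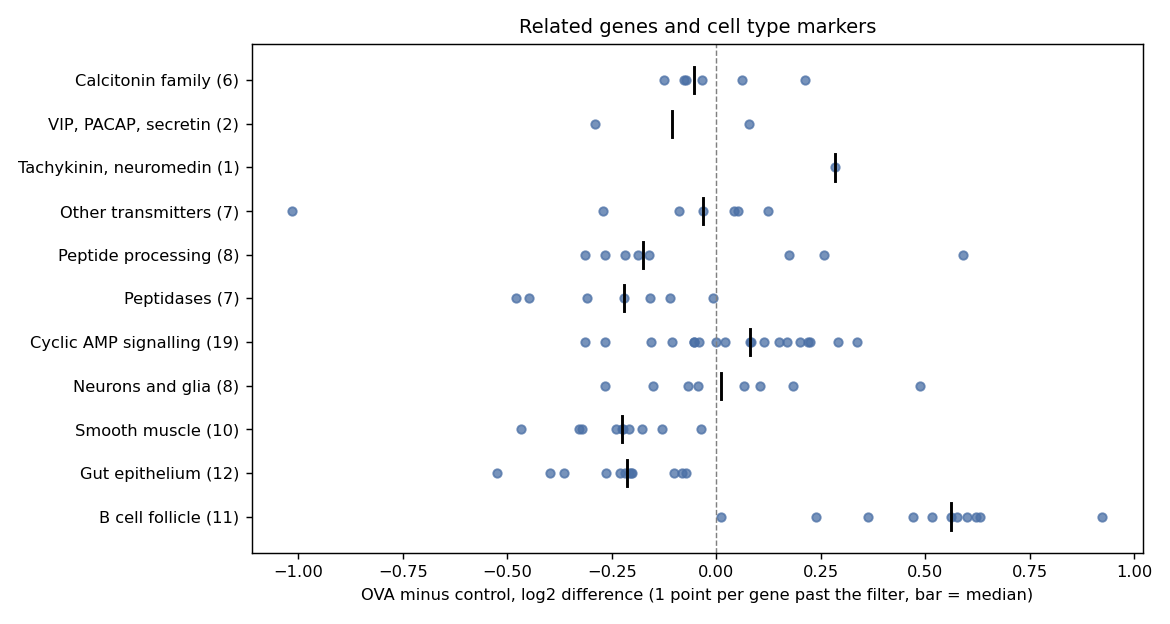
OVA minus control log2 difference (x axis) of each related gene or marker past the filter, 1 point per gene, with the list's median as a bar and the number of genes in brackets. The peptidases and the epithelium and smooth muscle markers lie below 0 and the B cell follicle markers above 0 (median 0.56; 10 of 11 above 0 with quantile normalization), while the calcitonin family is centred on -0.05.

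The genes whose pattern over the 8 arrays was most like each member were read by Pearson's r among 11987 other genes past the filter. Such values are high by selection and describe these arrays. For Calcb they were Tmed5, Tab2 and Apobec1 (r = 0.98 for each), and 290 genes had r above 0.9. For Vip they were Hspb6 (r = 0.98), Grid2ip (0.97) and Cst6 (0.96), with 38 above 0.9. For Ramp1 they were Taldo1, Tgds (r = 0.98 for both) and Ptprn (0.97). For Vipr1 they were Slc3a2, Slc5a11 (both 0.99) and Glod5 (0.98), for Calcrl Pdcd11, Manba (both 0.98) and Serpinb9 (0.97). For Tac1 they were Zfp235 (0.94), Htr3a (0.93), a serotonin receptor of neurons, and Amigo2 (0.90), and for Nmu Tnfsf10 (0.93), Phyh (0.91) and Eci1 (0.90), each of these 2 members having 3 genes above 0.9.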

How the data were processed

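Biotin-labelled RNA of 8 samples was hybridised to 1-colour Affymetrix mouse arrays. The authors deposited 1 intensity for each probe set and array, linear in scale and between 1.86 and 14749. Per the submitters' processing notes the authors used MAS5, with settings not given in the sources used here. In 51.5% of probe sets equal values occurred between arrays, as for Vipr1 in female OVA 2 and male OVA 13 (172.7). The source of these ties and their part in the SDs, ranks and r values were not tested. Array means trimmed to the 2 to 98% range lay between 65.1 and 68.2, so no further scaling was applied. No raw image file or scan date was used here.

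Intensities were taken to log2(value + 4.88), the 25th percentile of all values, without the 64 AFFX control probe sets. The 22518 probe sets above the median were fitted in R 4.3.3 with limma 3.58.1 (lmFit, eBayes), two-sided, with Benjamini-Hochberg adjustment over all of them. Treatment and sex were additive, and the sex difference of the OVA effect came from 4 group means. Relations used exact permutation in SciPy 1.17.1. Under the platform annotation 34958 probe sets named 1 gene, 932 named several and 9211 named none, and 34754 of the 34958 had gene identifiers in RefSeq. A gene stands for its brightest probe set. Named genes are all members, the 3 most alike genes of each, the 3 with the largest difference in each related list and 8 receptors and ligands. Rapgef3 and the cell type markers named for the tissue check fall outside this rule and were chosen after their values were seen. Members and lists were chosen with earlier results of these data known. The fits were tested on simulated data.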

Additional observations from a re-analysis of the deposited data

Results flagged for a closer look

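Nmu met the rule for a difference between groups, since both OVA females lay below the female control and all 4 OVA males above the male control. The male minus female OVA effect was 0.80 ± 0.31 (SE) on the log2 scale. With 1 control array in each sex and the genes chosen on these arrays, the difference was not tested. How many of all probe sets share this pattern was not counted, and Nmu lay near the filter intensity of 11.9. Of the 14 checks for a sample far from the others, on 7 genes in the 6 OVA arrays and in the 4 male OVA arrays, 0 passed Dixon's 95% critical value, where chance gives about 1 in 20.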

How the results depend on the processing

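In limma 0 probe sets were called for OVA against control under every alternative run, namely another pseudocount (1 or the median), quantile or median scaling, either other filter, a trended and robust variance, array weights, the model without sex, each array left out, and the 2 B cell alternatives added after the data were seen (1617 at an unadjusted p under 0.05 with the covariate, 2292 without both arrays). The sex difference of the OVA effect also gave 0 under those of them it was run with, which leave out the model without sex, the B cell alternatives and the loss of a control. Without a control the second contrast could not be fitted. For the sexes the count was 12, 4 with the filter at the 75th percentile, where fewer probe sets were tested, and 9 to 14 leaving out 1 array. No relation with a marker score passed under any of the 4 scalings tried. Across alternatives that keep all 8 arrays the Calcb difference was 0.92 to 1.12, except 0.65 with the B cell covariate. The filter at the 75th percentile left out Calcb, Calcrl and Nmu, so they have no value under it. Other small differences turned sign, and the cause was not tested. For OVA minus control, array weights gave 0.08 for Vip, -0.05 for Calcrl and 0.05 for Ramp1, and the mean of all probe sets gave -0.08 for Calcrl and 0.03 for Ramp1. The B cell covariate turned Vip, Calcrl, Ramp1 (0.21) and Vipr1, and so did leaving out both arrays of highest B cell score (0.13, -0.07, 0.04 and 0.02). Leaving out 1 array gave OVA minus control ranges of -0.21 to 0.06 for Vip, -0.01 to 0.10 for Calcrl, -0.26 to 0.29 for Ramp1, -0.49 to 0.03 for Vipr1, -0.01 to 0.07 for Tac1 and -0.40 to 0.40 for Nmu. For female minus male, Tac1 was -4.97e-05 with the median pseudocount, -0.0503 with array weights and -0.0228 with OVA arrays alone, while Vip was 0.05 with array weights. For the male minus female OVA effect, Calcb was -0.0125 with the median pseudocount and -0.0862 with array weights, and Calcrl was -0.0240 with array weights. Leaving out 1 array gave female minus male ranges of -0.0669 to 0.21 for Ramp1, -0.23 to 0.10 for Vipr1 and -0.0228 to 0.0331 for Tac1, and male minus female ranges of -0.20 to 0.17 for Calcb, -0.0591 to 0.20 for Calcrl and -0.0619 to 0.46 for Vip. The labels number the samples within their groups and pair no OVA sample with a control, so no paired analysis was run.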
